A study of Arabidopsis thaliana with 18 samples.

Results

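The genes described here were abundant in whole root tips of Arabidopsis thaliana and were mostly listed at 0 in cells sorted from root tips. A gene was taken when its FPKM (the number of sequenced fragments relative to transcript length and library size) was at least 50 in WT root tips, when it had a single gene name on chromosomes 1 to 5, and when it was at 0 in at least 8 of the 12 sorted libraries. The Casparian strip membrane genes CASP1 to CASP5 also met these criteria and were left out by the rule. The members were thus chosen by their WT FPKM and their zeros. This left 61 members of 2962 genes at 50 FPKM or more in both tables, among 32603 single-named genes on these chromosomes. Both measures are given as a description with no test.

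RNA sequencing was done on 18 samples in 6 groups of 3 replicates, all from 5-day-old seedlings grown on sucrose medium under long days. Root tips came from WT (Col-0) and from tcx2, a mutant in TCX2, a CXC-domain transcription factor related to a DNA-binding subunit of the DREAM cell cycle complex. From protoplasted roots of tcx2 reporter lines, GFP-positive cells were sorted for the remaining groups, which carried CYCD6:GFP (cortex endodermis initials), FEZ:FEZ-GFP (epidermis and lateral root cap initials), TMO5:3xGFP (xylem initials) or WOX5:GFP (quiescent center, QC). All 12 sorted libraries were therefore from the mutant, and no sorted WT cells were analysed here. The methods name a knockout allele, tcx2-3, for the root tips, and tcx2-2 or tcx2-3 for the reporter lines without saying which line had which. Root tips were not protoplasted and their libraries were made with another kit, so levels of the tables were not tested against each other, and absence from sorted cells cannot be told apart from loss during protoplasting or library preparation. In such bulk samples fewer cells of a type and less RNA per cell cannot be told apart.

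Root cells are born at the tip and differentiate as they are displaced from it. The endodermis then builds the Casparian strip, a lignin ring that seals the wall between cells and needs CASP proteins, peroxidases and dirigent proteins, and later deposits suberin, a waxy polyester. Xylem vessel cells thicken their walls and die by a program that includes nucleases and proteases, and epidermal hair cells grow out using expansins, extensins and peroxidases.

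The root tip table gave 1 FPKM value and an interval for each genotype, with no replicate values. TCX2 was at 1.29 FPKM (interval 0.715 to 1.82) in WT and at 0.303 (0.055 to 0.550) in tcx2, and these intervals did not overlap. Genes of the stem cell niche were low in WT root tips, between 0.198 FPKM for RGF1 and 25.1 for JKD over 15 genes, while 34 of 44 root hair genes were at 50 FPKM or more. The reporter genes were low in sorted cells and went against some labels. In the 3 libraries labelled WOX5:GFP, WOX5 was at 0 and TMO5 at 3.75, 0.391 and 0.782 FPKM. In the libraries labelled TMO5:3xGFP, TMO5 was at 0, 0.206 and 0 and WOX5 at 1.49, 0.997 and 0. FEZ was at 2.90, 0.949 and 0.347 FPKM in the libraries labelled FEZ:FEZ-GFP, and at 0.408 to 0.917 in those labelled TMO5:3xGFP. CYCD6;1 was at 0 in the 3 libraries labelled CYCD6:GFP and at most 0.315 elsewhere. The summed FPKM of the 15 niche genes was 51.4 to 191 in the libraries labelled TMO5:3xGFP, 13.4 to 34.5 in those labelled FEZ:FEZ-GFP, 3.21 to 12 in those labelled WOX5:GFP and 1.46 to 6.0 in those labelled CYCD6:GFP. Populations are therefore given below as their libraries are labelled, with no cell type read from them, and the membership rule counted zeros over all 12 libraries without using the labels. In the sorted libraries between 14878 and 22170 genes were above 0. Depth was unknown for these libraries, so a value of 0 has no stated detection limit.

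Few abundant genes were missing from sorted cells. Of the 2962 genes, 2392 were above 0 in all 12 libraries, which is 80.8%. Among the members, 27 were at 0 in 8 libraries, 15 in 9, 8 in 10, 8 in 11 and 3 in all 12. The share of genes that were members was 2.68% between 50 and 100 FPKM, 1.81% between 100 and 200, 1.29% between 200 and 400 and 1.16% from 400 upward. Members thus occurred at every level, including 4 of the 345 genes at or above 400 FPKM.

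**Figure D1:**
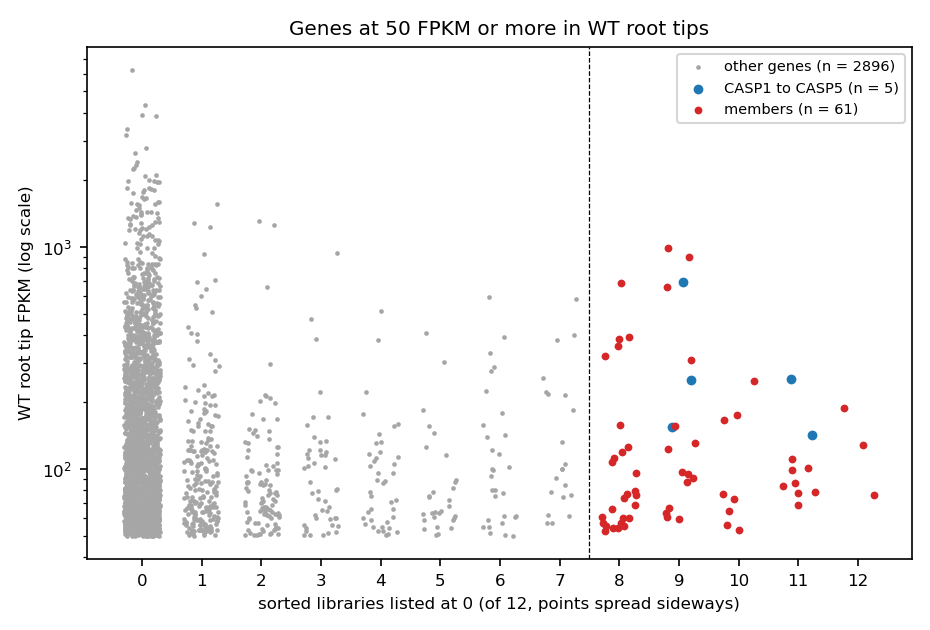
Each point is 1 of the 2962 genes at 50 FPKM or more in WT root tips. The x axis gives how many of the 12 sorted libraries listed the gene at 0, with points spread sideways, and the y axis gives WT FPKM on a log scale. The 61 members (red) and 5 CASP genes (blue) lie right of the dashed line, which marks the minimum of 8 libraries, and 2392 genes lie at 0 on the x axis.

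Near the limits of the rule, the lowest members were AT5G63270, a RIN4 family gene, at 52.7 FPKM in WT, AT4G23670 at 52.9 and AT2G20562, a taximin peptide gene, at 54.2. Just below 50 were AT2G46690, a SAUR-like gene, at 49.4 FPKM with 12 zeros, the peroxidase gene PRXCB at 49.4 with 9, and the peptide gene RALFL32 at 49.0 with 9. The 3 highest genes with 7 zeros, which are not members, were the fatty acid desaturase gene AT1G06090 at 581 FPKM, the lipid-transfer gene AT4G22460 at 400 and uclacyanin UCC1 at 379. The 3 highest members with 8 zeros were AT3G22620 at 686 FPKM, DIR24 at 394 and AGP13 at 383. A lipid-transfer gene thus stood on each side of the limit of 8. The genes on both sides were picked as the highest, so their like levels do not describe the other genes at 7 or 8 zeros.

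Of the 10 lists of cell type and function genes examined, those of differentiated endodermis, xylem and suberin held members. They held 3, 2 and 1 of the 61 members, in that order. Most members were in no list, so no tissue was assigned to them. The endodermis list had 13 genes at 50 FPKM or more and 3 were members, the peroxidase genes PER64 and PER39 and the dirigent gene DIR24. None of the 13 was above 0 in all 12 libraries, 11 were at 0 in 5 or more, and the median number of zeros was 7. The exceptions were the dirigent gene DIR9, at 277 FPKM in WT and at 0 in 1 library, and ESB1, a dirigent-domain gene of the Casparian strip, at 383 FPKM and at 0 in 3. The highest sorted values of these genes were 1.57 and 0.458 FPKM. RBOHF, an NADPH oxidase gene at 24.5 FPKM in WT that is widely expressed, was above 0 in all 12 libraries. Also below 50 FPKM in WT, SGN3 (31.6 FPKM) and LOTR1 (7.10) were each at 0 in 1 library and LAC13 (1.87) in 3. Summed over all 17 endodermis genes, FPKM was 2.38 to 16.1 in the sorted libraries and 4033 in WT root tips, which were scaled separately. Over the 16 genes other than RBOHF, it was 0.702 to 10.5 and 4009.

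The CASP genes, which anchor the strip in the plasma membrane and which the rule left out, had the same pattern. CASP1 was at 692 FPKM in WT and 731 in tcx2, and at 0 in 9 sorted libraries. CASP2 to CASP5 were between 142 and 254 FPKM in WT and between 164 and 315 in tcx2, with 9 to 11 zeros.

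The abundant genes of the other lists had at most 6 zeros. All 34 abundant root hair genes, between 50.3 and 1978 FPKM in WT, had at most 2 zeros, and 29 had none. The summed level of the 44 root hair genes was 231 to 937 FPKM in the sorted libraries and 16287 in WT root tips, so this list too had lower values in the sorted table. None of 7 cortex, 4 triterpene, 12 nutrient and water transport and 2 root cap genes at 50 FPKM or more was a member. The 4 triterpene genes were above 0 in all 12 libraries and the 12 transport genes had at most 2 zeros. The cortex gene AT1G62510 had the most zeros among these abundant genes, 6, and the root cap gene RCPG had 5. This depended on the WT minimum. The transport gene IRT1, at 45.3 FPKM in WT with 10 zeros, and the root cap gene BRN2, at 43.8 with 8, were left out only by that minimum. No phloem or stem cell niche gene reached 50 FPKM. These lists hold genes of mature hair cells at WT levels as high as those of the endodermis list, and the hair genes were not members.

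**Figure D2:**
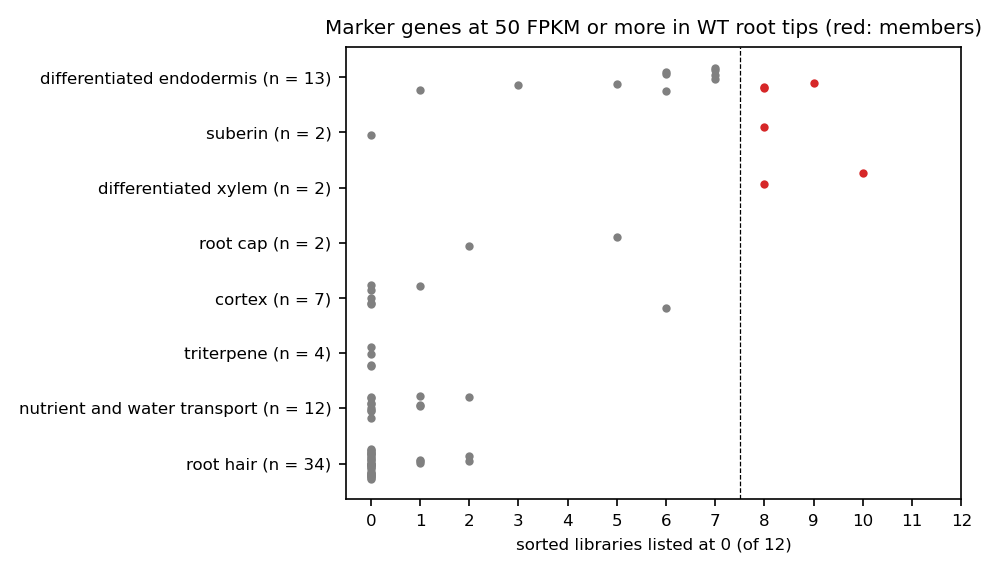
Each point is a listed gene at 50 FPKM or more in WT root tips, placed by the number of the 12 sorted libraries that listed it at 0 and spread up and down within its list. Members are red and lie right of the dashed line, in the endodermis (3 of 13), suberin (1 of 2) and xylem (2 of 2) lists, and the 34 root hair genes lie at 0 to 2.

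PER64, a peroxidase that acts in lignification of the Casparian strip, lies on chromosome 5. It was at 310 FPKM (205 to 395) in WT and at 314 (210 to 396) in tcx2. In sorted cells it was at 0.83 FPKM in TMO5:3xGFP replicate 1, at 0.44 in FEZ:FEZ-GFP replicate 3, at 0.079 in WOX5:GFP replicate 2 and at 0 in the other 9 libraries. No sorted population had it above 0 in more than 1 library.

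PER39, another peroxidase gene of the endodermis list, was at 357 FPKM (237 to 417) in WT and at 399 (269 to 475) in tcx2. It was above 0 in all 3 WOX5:GFP libraries, at 1.1, 0.25 and 1.8 FPKM, and at 1.4 in TMO5:3xGFP replicate 1. It was at 0 in the 8 other libraries, including every library labelled CYCD6:GFP or FEZ:FEZ-GFP.

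DIR24 encodes a dirigent protein, a class that guides how phenolic radicals couple. It was at 394 FPKM (255 to 452) in WT and at 369 (239 to 419) in tcx2. In sorted cells it was above 0 in 1 library of each population, at 0.44 FPKM in CYCD6:GFP replicate 2, 1.3 in FEZ:FEZ-GFP replicate 3, 0.37 in TMO5:3xGFP replicate 3 and 0.27 in WOX5:GFP replicate 2. In root tips the intervals of the genotypes overlapped for all 3 endodermis members.

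In the suberin list, the member was ASFT, the feruloyl transferase that adds ferulate to suberin. ASFT was at 66.1 FPKM (51.7 to 80.4) in WT and at 51.9 (40.3 to 63.6) in tcx2, and its highest sorted value was 0.21 FPKM. KCS20, a fatty acid elongase gene that is not restricted to suberin, was at 69.0 FPKM in WT and was above 0 in all 12 libraries. The remaining 12 suberin genes were at or below 4.46 FPKM in WT, among them GPAT5 at 0.452 and CYP86A1 at 0.288, so most defining genes of suberin were near 0 in these root tips. Of the 7 suberin genes that reached 1 FPKM in a genotype, 2 were lower in tcx2 by separate intervals, CYP86B1 and ABCG6, neither of them a member.

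The members in the xylem list were RNS3, a secreted ribonuclease, and MC9, a metacaspase that clears the contents of vessel cells after death. Being in the list does not show that their transcripts came from xylem alone. RNS3 was at 166 FPKM (105 to 183) in WT and at 207 (133 to 233) in tcx2, and in sorted cells it was at 0.31 FPKM in CYCD6:GFP replicate 1, at 0.23 in TMO5:3xGFP replicate 2 and at 0 in the other 10. MC9 was at 112 FPKM (77.8 to 145) in WT and at 136 (94.9 to 166) in tcx2. In sorted cells MC9 was at 0.95 FPKM in FEZ:FEZ-GFP replicate 3, at 0.13 and 0.84 in TMO5:3xGFP replicates 1 and 2, at 0.31 in WOX5:GFP replicate 2 and at 0 in the other 8. Neither gene was above 0 in all 3 libraries of any label.

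The other xylem genes were less abundant in WT root tips. The vessel proteases XCP1 and XCP2 were at 23.1 and 23.9 FPKM, the secondary wall cellulose synthase CESA4 was at 4.86, and the vessel regulators VND6 and VND7 were at 0.248 and 0.591. The list had 22 genes in both tables, 19 of which reached 1 FPKM in a genotype, and none had separate intervals. Summed over the list, FPKM was 1.20 to 18.1 in the sorted libraries, highest in WOX5:GFP replicate 3, and 444 in WT root tips. XCP1 had the highest sorted value of the list, 8.42 FPKM in that library, and IRX9 was at 0 in all 12.

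The promoters of RNS3 and MC9 are shown because both genes are in the xylem list and were low in sorted cells. A known promoter element of genes in forming vessel cells, the tracheary element motif, was searched on both strands. The core of the root hair element and the L1 box were searched in the same way. Each search ran from 250 bases before to 50 bases after the annotated gene start. Sequences are 5′ to 3′ on the strand of the gene, from RefSeq (TAIR10.1), with motif matches in capitals. MC9 lies on the forward strand, chr5:1153490-1153789, and RNS3 on the reverse strand, chr1:9293813-9294112.
MC9: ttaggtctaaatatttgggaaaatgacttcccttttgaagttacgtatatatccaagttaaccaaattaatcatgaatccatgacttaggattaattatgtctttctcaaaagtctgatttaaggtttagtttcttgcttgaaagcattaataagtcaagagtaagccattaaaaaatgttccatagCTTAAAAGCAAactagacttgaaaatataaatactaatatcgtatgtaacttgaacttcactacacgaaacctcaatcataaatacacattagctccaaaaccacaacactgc
RNS3: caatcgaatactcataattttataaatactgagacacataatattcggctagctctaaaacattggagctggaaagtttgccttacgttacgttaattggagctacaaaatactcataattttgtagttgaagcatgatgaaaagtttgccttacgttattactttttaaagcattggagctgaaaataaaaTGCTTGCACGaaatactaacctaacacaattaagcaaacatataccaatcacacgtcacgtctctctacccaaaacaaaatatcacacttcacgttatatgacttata

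In MC9 the capitals mark the tracheary element motif, from base -63 to base -53 relative to the gene start. It was the only member with this motif, which occurred in 0.446% of 37885 promoters of the same length. In RNS3 the capitals mark the core of the root hair element, from -58 to -49. That core occurred in 4 members (6.56%) and in 4.91% of promoters. The core with 1 more base between its parts occurred in 2 members (3.28%) and in 6.02% of promoters. The L1 box TAAATGTA, an element of epidermal genes, occurred in 4 members (6.56%) and in 3.19% of promoters. Among the 2896 other genes at 50 FPKM or more, the tracheary element motif occurred in 0.622% and the L1 box in 3.28%. In these genes the root hair core occurred in 6.22%, near the share of the members, and the longer core in 7.74%.

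By annotated product, some members shared a family with other members, among them families of wall and defense proteins. The families were not named in advance and every family given here held 2 or more members. Their shares among members are raised by that choice and were not tested. These family counts include the list members PER64, PER39 and DIR24. Lipid-transfer proteins, small secreted carriers of lipids, made up 7 members (11.5%) and 0.449% of the 2896 other genes at 50 FPKM or more. Dirigent-like proteins made up 4 members (6.56%) and 0.276% of the other genes. The members also included 3 xyloglucan endotransglucosylase/hydrolase genes, whose products cut and rejoin wall xyloglucan, 3 defensin-like or cysteine-rich peptides and pairs of peroxidase, beta glucosidase, cellulose synthase-like, CAP superfamily, Pollen Ole e 1 and MLP-like genes. Membership was not general in these families: of the 13 abundant lipid-transfer genes that were not members, 7 were above 0 in all 12 libraries, and of the 23 such peroxidase genes 13 were.

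The lipid-transfer members AT3G22620 and LTPG5 were adjacent on chromosome 3, with no coding gene between them. AT3G22620 was at 686 FPKM (363 to 679) in WT and at 662 (343 to 645) in tcx2. LTPG5 was at 662 FPKM (360 to 632) in WT and at 627 (336 to 589) in tcx2. For both genes the stated values lay above their own intervals. In sorted cells AT3G22620 was above 0 in 4 libraries, highest at 1.9 FPKM in TMO5:3xGFP replicate 1, and LTPG5 in 3, highest at 0.72 in CYCD6:GFP replicate 3.

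The other 5 lipid-transfer members were between 55.8 and 123 FPKM in WT. AT1G48750 is annotated wholly within AT1G48760 on the opposite strand, and all of its 100-base windows occur in that gene's transcripts. Whether the counting used strand was not given in the sources used here, so reads of these genes may not have been told apart. AT1G48760 was at 13.8 FPKM in WT and between 0.317 and 2.56 in the sorted libraries, above 0 in every library. Of the 7 lipid-transfer members only AT4G22640 had a higher value in tcx2 than in WT, at 75.9 and 69.2 FPKM, and the intervals of all 7 overlapped between genotypes.

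The dirigent members AT4G11210 and AT4G11190 were also adjacent, on chromosome 4, and 8 and 9 coding genes away from PER39. AT4G11210 was at 131 FPKM (61.7 to 118) in WT and at 153 (71.6 to 136) in tcx2. AT4G11190 was at 96.4 FPKM (54.0 to 103) in WT and at 63.0 (34.9 to 65.2) in tcx2. The neighbors thus differed in the sign of the log2 ratio, 0.22 and -0.61, and neither had separate intervals. The cellulose synthase-like genes CSLB02 and CSLB01 were adjacent on chromosome 2, and were at 66.8 and 64.5 FPKM in WT and at 81.6 and 70.1 in tcx2.

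The most abundant members were TGG5 and TGG4, root myrosinases that release toxic products from glucosinolates. TGG5 (chromosome 1, 19087413 to 19090414, forward strand, TAIR10 coordinates of the deposited table) was at 985 FPKM (711 to 1258) in WT and at 1151 (842 to 1459) in tcx2. TGG4 (chromosome 1, 17491732 to 17494759, forward strand) was at 897 FPKM (653 to 1142) in WT and at 1054 (717 to 1394) in tcx2. Both were highest among sorted libraries in WOX5:GFP replicate 2, TGG5 at 2.8 and TGG4 at 3.7 FPKM, and neither was above 0.6 FPKM in any other library. They share 9.93% and 10.4% of their 100-base windows, so a part of their reads could not be assigned between them.

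The remaining members among the 10 highest were small secreted proteins. AGP13, an arabinogalactan peptide, was at 383 FPKM (131 to 247) in WT and at 438 (143 to 273) in tcx2. PDF2.3, a defensin, was at 323 FPKM (150 to 279) in WT and at 307 (136 to 255) in tcx2. RALF1, a peptide that raises the pH of the wall through the receptor kinase FERONIA, was at 249 FPKM (143 to 267) in WT and at 237 (139 to 258) in tcx2. All 3 genes had overlapping intervals between genotypes, and only RALF1 lay within its own.

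Members at 0 in all 12 sorted libraries were the 18S ribosomal RNA gene AT3G41768, AT1G71740, annotated as a nucleolar protein, and AT3G62450, annotated as a DNA mismatch repair protein. AT3G41768 was at 188 FPKM (146 to 229) in WT and at 130 (102 to 158) in tcx2. It shares 88.3% of its windows with the ribosomal RNA gene AT2G01010, which was at 0.092 FPKM in WT and at 0 in every sorted library. How reads that match both genes were assigned was not given in the sources used here. AT1G71740 was at 128 FPKM in WT and 131 in tcx2, and AT3G62450 at 76.2 and 72.7.

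Members were short. Their median transcript length was 1079 bases, against 1508 for the other genes at 50 FPKM or more, and 36.1% had a single exon against 12.2%. Among all annotated genes the median length was 1507 bases and 32.0% had a single exon, a share near that of the members. Overlap with another gene was annotated for 8 members (13.1%) and 29.8% of the other genes. Of the 61 members 59 were protein-coding, and they were spread over the chromosomes, with 16 on chromosome 1, 10 on 2, 12 on 3, 13 on 4 and 10 on 5. The part of transcript length in the zeros was not tested.

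In WT and tcx2 root tips the members had nearly the same level. WT FPKM ranged from 52.7 to 985 with a median of 86.6, and tcx2 FPKM from 19.8 to 1151 with a median of 87.2, and 56 members were also at 50 FPKM or more in tcx2. Together they made up 1.18% of the FPKM sum in each genotype. The median log2 ratio of tcx2 to WT, on FPKM + 1, was 0.00 after rounding, against 0.04 for the 2896 other abundant genes and 0.00 for all 17127 genes with at least 1 FPKM in a genotype. The ratio was above 0 for 30 of 61 members, for 62.3% of the other abundant genes and for 50.4% of all genes.

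**Figure D3:**
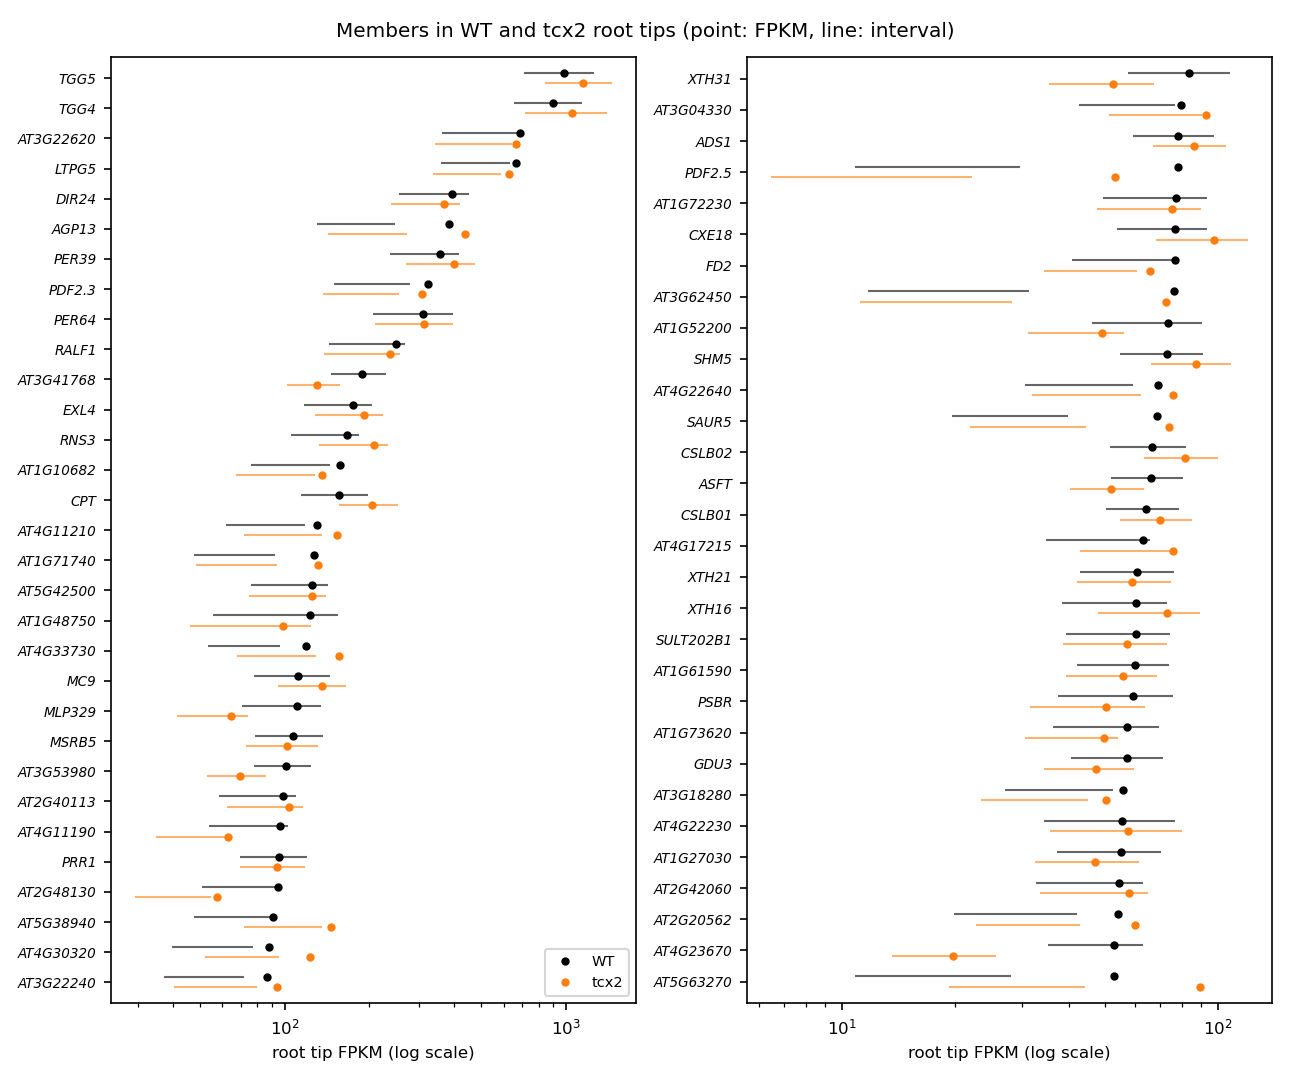
Root tip FPKM on a log scale for the 61 members, ordered by WT level over both panels, in WT (black) and tcx2 (orange). Points are the table's values and lines its intervals, from 1 value per genotype. Lines of the genotypes are apart only for AT4G23670, and 21 members have a point right of its own line.

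Only 1 member had separate intervals, and it was lower in tcx2, where it was under the minimum of 50 FPKM that the rule set on WT alone. Over all genes 0.327% were lower and 0.0409% higher by this criterion, 0.368% in all. The member was AT4G23670, on chromosome 4, annotated as a polyketide cyclase and lipid transport protein of the family of MLP-like proteins, which carry a pocket for hydrophobic ligands. It was at 52.9 FPKM (35.2 to 63.2) in WT and at 19.8 (13.6 to 25.7) in tcx2, a log2 ratio of -1.38. In sorted tcx2 cells it was at 0.15 FPKM in CYCD6:GFP replicate 3, at 0.39 in WOX5:GFP replicate 1 and at 0 in the other 10 libraries. The other MLP-like member, MLP329, was at 111 FPKM (70.5 to 135) in WT and at 64.3 (41.6 to 74.1) in tcx2, a log2 ratio of -0.77 with overlapping intervals.

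Ratios of members were more spread out than those of other abundant genes. The quartiles of the log2 ratio were -0.21 and 0.22 for members, against -0.05 and 0.12 for the other genes. For the 698 other abundant genes whose transcripts were no longer than that of the median member, they were -0.09 and 0.09. Past a fold change of 1.5, 5 members were lower and 2 higher in tcx2, beside 1.84% and 0.765% of all genes. With 1 value per genotype none of these fold changes has a replicate error. A minimum on WT and none on tcx2 can by itself favor lower values in tcx2. Chosen by a tcx2 FPKM of at least 50 instead, the genes had a median log2 ratio of 0.08.

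The members with the lowest ratios after AT4G23670 and MLP329 were AT2G48130, XTH31 and AT4G11190. AT2G48130, a lipid-transfer protein gene, was at 94.6 FPKM (50.7 to 96.3) in WT and at 57.5 (29.4 to 54.9) in tcx2, a log2 ratio of -0.71. XTH31, a wall xyloglucan enzyme, was at 83.5 FPKM (57.5 to 107) in WT and at 52.5 (35.6 to 67.6) in tcx2, a log2 ratio of -0.66. All of these intervals overlapped between genotypes.

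The highest ratios were those of AT5G63270, AT5G38940, AT4G30320, CPT and AT4G33730. AT5G38940, a germin-like cupin gene, was at 90.8 FPKM (47.5 to 90.2) in WT and at 146 (71.5 to 136) in tcx2, a log2 ratio of 0.68. CPT, a cis-prenyltransferase that makes polyprenyl chains, was at 156 FPKM (114 to 198) in WT and at 205 (157 to 253) in tcx2, a log2 ratio of 0.39. AT5G63270 had a log2 ratio of 0.75, at 52.7 FPKM in WT and 89.7 in tcx2, but its intervals reached only 28.1 and 44.3. AT4G30320 and AT4G33730, secreted proteins of the CAP superfamily, had log2 ratios of 0.48 and 0.38. None of the 5 had separate intervals.

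**Figure D4:**
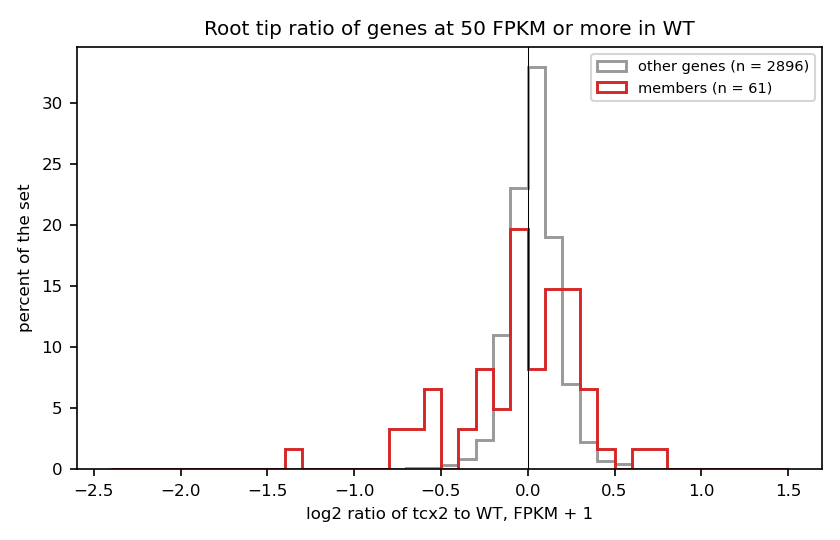
Histogram of the log2 ratio of tcx2 to WT root tip FPKM + 1, in bins of 0.1, for 61 members (red) and 2896 other genes at 50 FPKM or more in WT (gray), each as percent of its set. Both are centered near 0 and the members spread wider, with quartiles of -0.21 and 0.22 against -0.05 and 0.12.

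By list, neither the endodermis nor the xylem genes differed between genotypes by separate intervals. None of 17 endodermis genes and none of 19 xylem genes was separate, with median log2 ratios of 0.03 and 0.03. The ratio of the members in the endodermis list was 0.02 for PER64, 0.16 for PER39 and -0.09 for DIR24. For those in the xylem list it was 0.32 for RNS3 and 0.28 for MC9. For the root hair list, which held no member, the median log2 ratio was 0.32, and 42 of its 43 compared genes had a ratio above 0. By separate intervals 1 was higher, XTH26 at 5.30 FPKM in WT and 18.5 in tcx2, beside 0.0409% of all genes. Some hair genes had values above their own intervals, such as EXT13 at 1372 FPKM (466 to 835) in WT. Others did not, such as EXPA7 at 432 (290 to 511). The suberin list had a median log2 ratio of -0.61, and 1 of its 7 compared genes had a ratio above 0. By separate intervals 2 of the 7 were lower, beside 0.327% of all genes. They were at low WT levels, CYP86B1 at 1.39 FPKM and ABCG6 at 2.14. The suberin member ASFT had a log2 ratio of -0.34 with overlapping intervals. The differences between these lists were not tested.

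The stated value of a member did not always lie within its own interval. In 21 members (34.4%) it was above the upper bound in at least 1 genotype, against 7.18% of the other abundant genes outside their bounds. The median transcript length was 707 bases for these 21 and 1214 for the other 40. For 5 members, PDF2.5, AT3G62450, SAUR5, AT2G20562 and AT5G63270, the WT upper bound was itself under 50 FPKM, as for the defensin gene PDF2.5 at 78.0 FPKM with an interval of 10.8 to 29.7. Calls from separate intervals used only the bounds and not these values.

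In sorted tcx2 cells the members were seen sparsely. Of 732 values 177 were above 0, which is 24.2%, and 60 were at least 1 FPKM. The median of the values above 0 was 0.60 FPKM and the highest was 8.77, for the auxin-responsive gene SAUR5 in WOX5:GFP replicate 2. No value of at least 1 FPKM was found for 28 members. The other abundant genes had median FPKM of 2.39 to 6.92 in these libraries, and 93.2% to 98.8% of them were above 0.

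The libraries were not alike in how many members they held. Members above 0 numbered 12, 6 and 10 in the CYCD6:GFP libraries, 9, 10 and 10 in FEZ:FEZ-GFP, 33, 11 and 12 in TMO5:3xGFP and 20, 23 and 21 in WOX5:GFP. TMO5:3xGFP replicate 1 stood apart from its group, and it also had the most genes of any kind above 0, 22170, and 4 of the 5 CASP genes. Without it, 144 of 671 values were above 0, which is 21.5%. The libraries labelled WOX5:GFP held more members than every other library except that one, although with 15831 to 16638 genes above 0 they did not have the most genes detected. This was not tested, since the rule used the zeros.

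**Figure D5:**
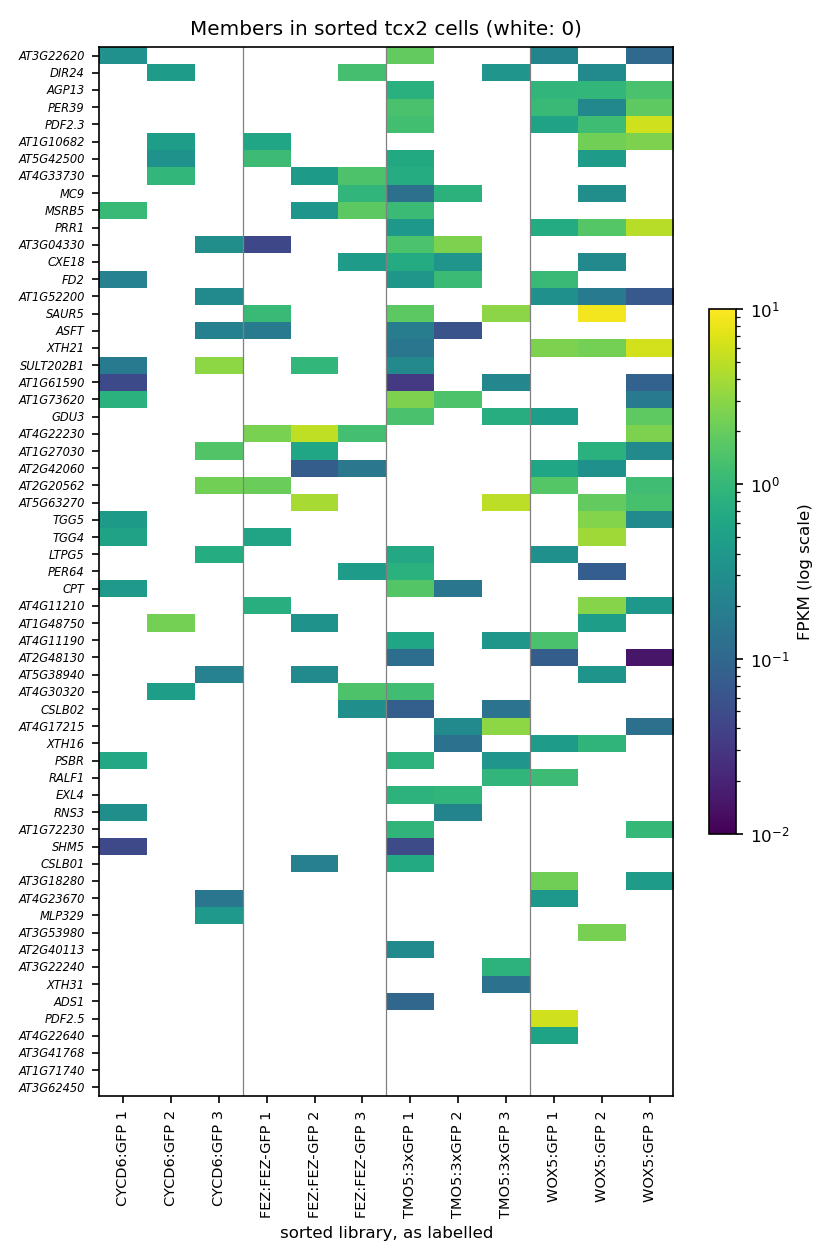
FPKM of the 61 members (rows, ordered by number of zeros and then by WT level) in the 12 sorted tcx2 libraries (columns), on a log color scale with white for 0. Values are scattered, with 33 members above 0 in TMO5:3xGFP replicate 1 and 20 to 23 in each WOX5:GFP library.

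Detection in all 3 libraries of a population occurred for 7 members, 6 in WOX5:GFP and 1 in FEZ:FEZ-GFP. Those labelled WOX5:GFP held PER39, AGP13, PDF2.3, PRR1, XTH21 and AT1G52200 in this way. PRR1, a pinoresinol reductase of lignan synthesis, was at 0.71, 1.6 and 4.8 FPKM there and at 0.39 in TMO5:3xGFP replicate 1. AGP13 was at 0.93, 0.96 and 1.4 FPKM in WOX5:GFP and at 0.79 in TMO5:3xGFP replicate 1. Both were at 0 in every CYCD6:GFP and FEZ:FEZ-GFP library.

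Only 8 members passed the filter of at least 1 FPKM in 3 libraries, and a member could pass only through the few libraries where it was above 0. Of these 8, 2 were called between populations by limma, beside 6.65% of the 9979 genes tested, and nothing is read from that count. XTH21, a wall xyloglucan enzyme at 60.9 FPKM in WT root tips and 59.2 in tcx2, was at 2.6, 2.4 and 6.3 FPKM in WOX5:GFP, at 0.15 in TMO5:3xGFP replicate 1 and at 0 elsewhere. AT4G22230, a defensin-like peptide gene at 55.5 FPKM in WT and 57.6 in tcx2, had values of 2.5, 5.2 and 1.3 FPKM in FEZ:FEZ-GFP, of 2.5 in WOX5:GFP replicate 3 and of 0 elsewhere. Each was thus above 0 in all 3 libraries of 1 label and in 1 library of another.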

How the data were processed

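Expression was measured by RNA-seq in 6 root tip and 12 sorted cell samples, grouped by their labels. The authors aligned reads with Bowtie or Bowtie2 to TAIR10 and quantified them with Cufflinks, per the labels' processing notes, which also name edgeR for the sorted cells. Versions were not given in the sources used here. The deposited FPKM values were used as they stood: 1 value with an interval of unstated level per genotype for root tips, pooled over replicates, and 1 per library for sorted cells. There were 33201 root tip entries and 33560 genes for sorted cells. Of the genes at 50 FPKM or more in WT, 2 were not in the sorted table and could not be members. Labels give about 1 mm of root tip and the methods 2 mm. Low values showed no whole-read steps in the sorted table, so depth was unknown.

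The members and the gene lists were chosen with earlier results of these data known. Genotypes were compared for genes of at least 1 FPKM in a genotype, called where the intervals did not overlap. Sorted cells were fitted with limma 3.58.1 (R 4.3.3, statmod 1.5.0) on log2(FPKM + 1) with a variance trend, for genes of at least 1 FPKM in at least 3 libraries, by an F-test over populations and each population against the mean of the others (Benjamini-Hochberg adjusted p under 0.05, and fold over 2 for single populations), and the fit was checked on simulated data. Adding 1 understates changes of low genes. No label says that replicates came from separate plants. Annotated products, gene starts and transcripts came from RefSeq TAIR10.1, which matched all 61 members. Sharing of sequence was the percent of 100-base windows of a transcript found in another gene's transcript, on either strand. Protein sequences were not analysed here. Python 3.11.15, pandas 2.3.3, numpy 2.4.6 and matplotlib 3.10.9 were used.

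Genes were named if they were members in a list, the 10 highest in WT, called in either comparison, among the 5 largest ratios in each direction, among the 3 nearest each limit, or adjacent with the same product, besides TCX2. Other names were chosen after their values were seen. Alternatives changed the limits of the rule, pseudocount, filter, scaling, call and libraries used.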

Additional observations from a re-analysis of the deposited data

How the results depend on the processing

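The number of members followed the limits of the rule. It was 107 at a WT minimum of 30 FPKM, 24 at 100, 34 with 9 zeros required, 3 with all 12, and 354 with values under 1 FPKM counted as absent. Other choices gave 52 to 82: 82 with 7 zeros, 78 with values under 0.1 FPKM as absent, 60 and 62 by the tcx2 value or the mean of both genotypes, and, added after seeing the data, 52 by the midpoint of the WT interval and 57 without genes sharing over 10% of their windows. By the lower bound of that interval, also added, it was 34. With 8 zeros required of 11 libraries, leaving out 1 library gave 38 to 53, the highest without TMO5:3xGFP replicate 1, and fewer libraries leave fewer zeros. The median log2 ratio stayed between -0.05 and 0.08 over 8 alternatives, 2 of them added after seeing the data. Calls between genotypes numbered 7 members (5 lower, 2 higher) at a fold over 1.5 and 6 (5 lower, 1 higher) where each value had only to lie outside the interval of the other, against 2.60% and 1.81% of all genes. They numbered 1 at a fold over 2 and 1 without the filter, against 0.812% and 0.202%. Calls among sorted populations numbered 1 with a pseudocount of 0.1 (4.02% of all genes tested), 1 with 5 (4.57%), 1 without the filter (1.33%), 3 with at least 1 FPKM in 2 libraries (6.08%), 2 with libraries centred (8.18%) and 4 with array weights, where 40.3% of all genes tested were called. Leaving out 1 library gave 1 to 2. XTH21 reached 1 FPKM only in the WOX5:GFP libraries, so without any one of them it failed the filter and was not tested. AT4G22230 was not called when a CYCD6:GFP or TMO5:3xGFP replicate or FEZ:FEZ-GFP replicate 1 or 2 was left out. The replicate block left 1 call, XTH21 (5.90% of all genes tested). Same-numbered libraries deviated together in 2 of 18 pairs at a correlation over 0.1 (range -0.19 to 0.17), and 4 of 12 libraries correlated best with their own number, so the numbers were not treated as a pairing. No paired analysis of root tips was possible because the table held 1 value per genotype. Depth was unknown, and neither zeros nor single root tip values carry a replicate error.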
